A study of Mus musculus with 13 samples.

Results

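The inhibitors of cyclin-dependent kinases, the D cyclins and their kinase Cdk6, and the tumour suppressor gene Trp53 were examined in 3 populations of mouse splenic CD4 T cells. They were chosen as genes of senescence and of entry into the cell cycle, by matching 10 gene symbols to the deposited table, which holds 18649 genes. Of the 10 symbols, 9 were in the table: Cdkn1a, Cdkn1b, Cdkn2b, Cdkn2c, Cdkn2d, Ccnd2, Ccnd3, Cdk6 and Trp53. Cdkn2a, which encodes p16Ink4a and p19Arf, was not analysed here. The PD1hi cells carried much PD-1, an inhibitory receptor, at their surface and lacked a GFP reporter of Foxp3 (3 libraries). The Treg cells were Foxp3 regulatory T cells, positive for the reporter and negative for PD-1 (5 libraries), and the conventional cells (Tconv) were negative for both (5 libraries). All were splenic CD4 T cells sorted by PD-1 and the reporter, with no treatment named, and each population was taken in experiments 3, 5 and 6. The labels give neither the strain, age and number of the mice nor a further marker of the PD1hi cells. Where an experiment gave a pair of libraries for a population, their mean was used, so each population has 3 values. Whether paired libraries came from separate mice is not stated in the labels. The p-values therefore reflect only how far these values scatter, part of which may be technical.

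D cyclins bind Cdk4 or Cdk6 when a resting T cell is stimulated, and the active kinases phosphorylate Rb, which frees E2F factors and lets the cell enter S phase. The INK4 proteins, made by the Cdkn2 genes, bind Cdk4 and Cdk6 and keep them from the D cyclins. The CIP/KIP proteins, made by the Cdkn1 genes, act on cyclin-kinase complexes more widely, above all on those of Cdk2. The p53 protein activates transcription of Cdkn1a after DNA damage. Persistent expression of Cdkn1a or of INK4 genes is widely used as a sign of senescence, but these genes are also transcribed in dividing lymphocytes.

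Levels are scaled counts, which are reads per gene divided by a size factor of the library, and are given as the mean ± SD over 3 experiments (n = 3). Depth ran from 15971126 reads in genes in the PD1hi library of experiment 6 to 24216463 in the second Treg library of experiment 3. Those same libraries stood apart from the others of their populations on the third principal component, which held 7.88% of the variance. Results that rest on them are given with and without them. Pdcd1, the gene of PD-1, averaged 37370 ± 3290 in PD1hi, 1955 ± 38.5 in Treg and 1132 ± 136 in Tconv, and Foxp3 averaged 106 ± 33.4 in PD1hi, 15890 ± 513 in Treg and 292 ± 35.8 in Tconv. All 8 T cell markers had reads in every population. Transcripts of 10 B cell markers, mostly Ighm and Igkc, summed to between 41920 and 55800 in PD1hi, 68580 and 82310 in Treg, and 23730 and 27360 in Tconv. Single B cell markers differed in pattern. Cd22 averaged 1675 ± 243 in PD1hi, 241 ± 30.7 in Treg and 179 ± 51.8 in Tconv, and Cd79b averaged 130 ± 39.4 in PD1hi, 629 ± 83.8 in Treg and 57.8 ± 3.12 in Tconv. Pax5 was near 0 throughout, at most 10.1 in PD1hi, 1.62 in Treg and 3.20 in Tconv. Sums of 4 plasma cell markers were 3904 to 7326 in PD1hi, 6649 to 9580 in Treg, and 2581 to 3246 in Tconv. B cell and plasma cell sums were thus lowest in Tconv, where those of CD8 T and NK cells were highest. Sums of 6 CD8 T and NK cell markers were 404 to 682 in PD1hi, 360.2 to 577 in Treg, and 1954 to 1990 in Tconv. Single genes of these lists also differed. Klrb1c, Cd8b1, Klrd1 and Zbtb16 were highest in Tconv without overlap, whereas Ncr1 and Cd8a overlapped between populations. Cd8a averaged 6.78 in PD1hi, 5.55 in Treg and 8.43 in Tconv. Of the plasma cell genes, Prdm1 averaged 557 in PD1hi, 2494 in Treg and 582 in Tconv. Igj averaged 3866 in PD1hi, 4316 in Treg and 1586 in Tconv. Sums of 9 myeloid markers were 448 to 628 in PD1hi, 319.7 to 752 in Treg, and 394 to 720 in Tconv. Single myeloid genes differed in opposite directions. Cd68 averaged 171 in PD1hi, 51.2 in Treg and 47.9 in Tconv, and Itgam averaged 13.7 in PD1hi, 109 in Treg and 123.5 in Tconv. Sums of 6 erythroid and platelet markers were at most 69.6 in PD1hi, 64.3 in Treg and 44.8 in Tconv. The part of such cells in the values of the cell cycle genes was not tested.

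Against Tconv, PD1hi cells had more transcript of Cdkn1a, Cdkn2b, Cdkn2c and Cdk6 and less of Cdkn2d and Ccnd2, and the tests of Cdkn1b, Ccnd3 and Trp53 missed the threshold. Thus 4 of 9 genes rose and 2 fell, at an adjusted p under 0.05 from limma. Of all 14177 genes tested, 26.1% were called, 14.2% higher and 11.9% lower. The 9 genes, Cdkn2b among them, had a median log2 fold change of 0.16, against 0.0 over all genes tested. Cdkn2b passed the filter on low values (a mean scaled count of at least 10) only through its level in PD1hi. Its part in the calls and in that median therefore carries little information. Of the other 8 genes 3 rose and 2 fell, and their middle folds, -0.15 (Trp53) and 0.16 (Cdkn1b), lay on both sides of 0. Against Treg, 1 of the 9 genes rose in PD1hi (Cdkn2b) and 0 fell, where 16.5% of all genes were called, 8.16% higher and 8.39% lower. Without Cdkn2b, 0 of the other 8 genes passed that test. In Treg against Tconv, 1 gene rose (Cdk6) and 3 fell (Cdkn2d, Ccnd2 and Ccnd3), where 14.4% of all genes were called, 8.73% higher and 5.66% lower. Values of the populations did not overlap for 6 of the 9 genes in PD1hi against Tconv (39.9% of all genes tested), 5 in PD1hi against Treg (30.4%) and 7 in Treg against Tconv (34.2%). Cdkn2b was among the 6 and among the 5, and its part in those counts carries little information for the same reason as above. These 3 comparisons share samples in pairs, so each gene's values are given side by side. In sorted bulk samples, fewer cells of a type and less RNA per cell cannot be told apart.

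**Figure D1:**
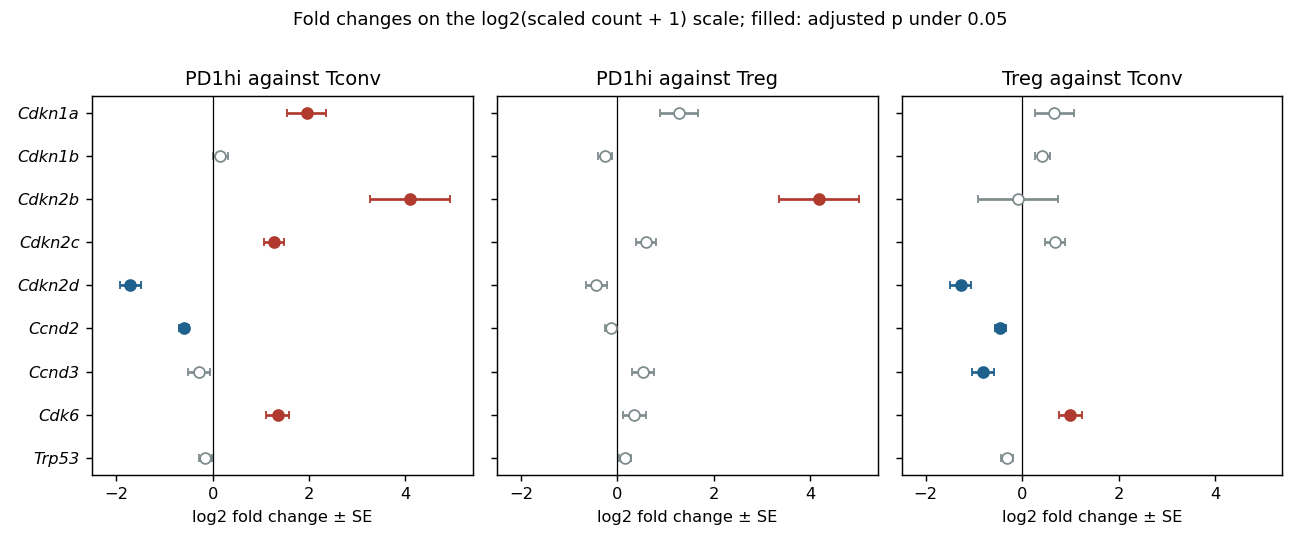
Log2 fold changes of the 9 genes in the 3 comparisons, on the log2(scaled count + 1) scale, with bars of 1 SE from limma. Filled points passed adjusted p under 0.05. Cdkn2b stands far to the right in both PD1hi comparisons (4.10 ± 0.83 and 4.19 ± 0.83), and Cdkn2d lies left of 0 in both comparisons with Tconv (-1.71 ± 0.22 and -1.27 ± 0.22).

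The INK4 genes moved in opposite directions. Cdkn2b (ENSMUSG00000073802) encodes p15Ink4b, an inhibitor of Cdk4 and Cdk6 that TGF-beta induces in epithelial cells. It had 76, 111 and 37 reads in the PD1hi libraries of experiments 3, 5 and 6. The Treg libraries held 0 and 25 reads in experiment 3, 5 reads in experiment 5, and 0 and 0 in experiment 6. The Tconv libraries held 3 reads in experiment 3, 1 and 9 in experiment 5, and 3 and 0 in experiment 6. Each PD1hi library had more reads than any Treg or Tconv library, and 25 of the 30 Treg reads came from 1 library, the deepest, which stood apart. As scaled counts the values were 77.9, 112 and 40.2 in PD1hi, 9.58, 4.70 and 0 in Treg, and 3.20, 5.29 and 1.78 in Tconv. The means were 76.8 ± 36.0 in PD1hi, 4.76 ± 4.79 in Treg and 3.42 ± 1.77 in Tconv, so that the populations other than PD1hi were close to the detection limit. Summed over all libraries there were 224 reads in PD1hi, 30 in Treg and 16 in Tconv. Scaled by the summed size factors, the ratio of reads was 23.8 for PD1hi over Tconv (exact 95% interval 14.3 to 42.3) and 14.1 for PD1hi over Treg (9.58 to 21.3). For Treg over Tconv it was 1.69 (0.893 to 3.32). Without the second Treg library of experiment 3, 5 Treg reads remained, and the ratio was 64.1 for PD1hi over Treg (27.1 to 199) and 0.371 for Treg over Tconv (0.106 to 1.06). Whether Treg stood above or below Tconv thus depended on 1 library, and both intervals for that pair include equal levels. The intervals account for counting error alone, as amplified reads are not separate molecules.

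In limma the log2 fold change of Cdkn2b was 4.10 ± 0.83 in PD1hi against Tconv (adjusted p = 0.00298). Its differences within experiments 3, 5 and 6 were 4.23, 4.17 and 3.89, all of 1 sign and close to each other. In PD1hi against Treg it was 4.19 ± 0.83 (adjusted p = 0.00381), with differences of 2.90, 4.31 and 5.37 within the experiments. The size of these folds depended on how near-zero values were handled. With a pseudocount of 10 they were 2.61 against Tconv and 2.52 against Treg. Without the second Treg library of experiment 3, the fold against Treg was 5.33, and it was 4.91 without all Treg libraries of experiment 3 and 3.21 without those of experiment 6. All of these were called. Because the gene passed the filter on low values only through its PD1hi level, these calls and adjusted p-values carry little information. Treg against Tconv gave a log2 fold change of -0.09 ± 0.83 (limma, adjusted p = 0.965), and it had no stable sign, since it was 0.89 without the Treg libraries of experiment 6 and -1.23 without the second Treg library of experiment 3.

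Cdkn2c (ENSMUSG00000028551) encodes p18Ink4c, which restrains lymphocyte division in the mouse. Its values in experiments 3, 5 and 6 were 388, 483 and 373 in PD1hi, 299, 316 and 218 in Treg, and 196, 163 and 153 in Tconv. The populations did not overlap and stood in the order PD1hi, Treg, Tconv in each experiment. Means were 415 ± 59.6 in PD1hi, 277 ± 52.4 in Treg and 171 ± 22.3 in Tconv. PD1hi exceeded Tconv 2.43 times in the means, with a log2 fold change of 1.27 ± 0.21 (limma, adjusted p = 0.000862). The steps between neighbours in that order did not pass the test, at 0.59 ± 0.21 for PD1hi against Treg (limma, adjusted p = 0.0892) and 0.68 ± 0.21 for Treg against Tconv (adjusted p = 0.0537). The second of these passed in 10 of 22 alternatives, among them the blocked fit, in which the experiment was a term (0.68 ± 0.18, limma, adjusted p = 0.0354), that without the PD1hi library of experiment 6 (adjusted p = 0.0360) and that without the Treg libraries of experiment 6 (0.85, adjusted p = 0.0345).

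Cdkn2d encodes p19Ink4d, whose transcript in other cell types peaks in S phase. It ran the other way, with values of 255, 273 and 171 in PD1hi, 379, 288 and 276 in Treg, and 731, 819 and 704 in Tconv in experiments 3, 5 and 6. The lowest Tconv value was far above the highest value of both other populations, and the PD1hi values lay just below those of Treg without overlap. Means were 233 ± 54.6 in PD1hi, 314 ± 56.3 in Treg and 752 ± 60.2 in Tconv. Tconv exceeded PD1hi 3.23 times and Treg 2.39 times in the means. In limma the log2 fold change was -1.71 ± 0.22 in PD1hi against Tconv (adjusted p = 0.000104) and -1.27 ± 0.22 in Treg against Tconv (adjusted p = 0.00175). It was -0.44 ± 0.22 in PD1hi against Treg (limma, adjusted p = 0.209), which did not pass.

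The contrast between these close relatives can be read within each sample, where scaling cancels. The log2 difference of Cdkn2c minus Cdkn2d was 0.60, 0.82 and 1.12 in PD1hi in experiments 3, 5 and 6, -0.34, 0.13 and -0.34 in Treg, and -1.89, -2.32 and -2.19 in Tconv. PD1hi therefore held more Cdkn2c than Cdkn2d reads in every experiment, Treg values lay on both sides of 0, and Tconv held more Cdkn2d in every experiment. The means were 0.85 ± 0.26 in PD1hi, -0.18 ± 0.27 in Treg and -2.13 ± 0.22 in Tconv (SD, n = 3 each). These values are read counts of genes of unlike length, so the sign says nothing of which transcript was the more abundant molecule.

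**Figure D2:**
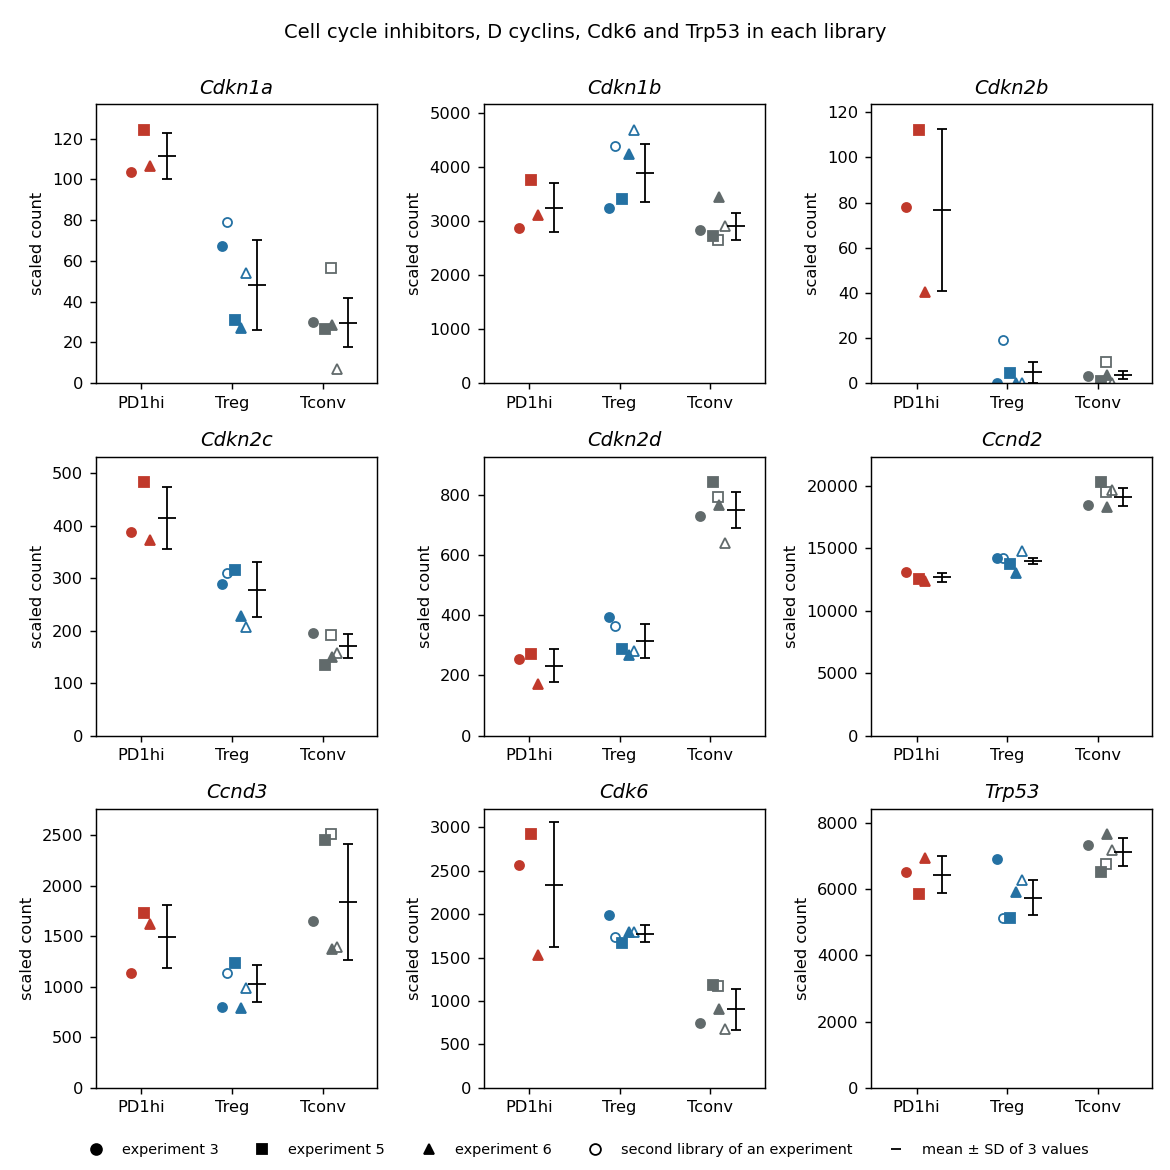
Scaled counts of the 9 genes in each of the 13 libraries, by population, with PD1hi on the left, Treg in the middle and Tconv on the right. Points are libraries, marked by experiment, with open marks for the second library of an experiment. Bars are mean ± SD over the 3 experiments, and each panel has its own linear axis from 0. Cdkn2b is high in PD1hi alone, Cdkn2c steps down and Cdkn2d steps up along the row of populations.

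The windows around the annotated start sites of the INK4 genes are shown because these neighbours in the family moved in opposite directions. They were taken from RefSeq on build GRCm38.p6, from 250 bases before to 50 bases after a start, written 5′ to 3′ on the minus strand, on which all 3 genes lie. Windows were found for 9 of the 10 symbols (13 windows in all). Capitals mark matches, on either strand, to 5 short motifs. These were the GC box GGGCGG, the E2F motif TTTNGCGC, the E box CACGTG, the AP-1 motif TGANTCA and the forkhead motif GTAAACA.
Cdkn2b, chr4:89310983-89311282: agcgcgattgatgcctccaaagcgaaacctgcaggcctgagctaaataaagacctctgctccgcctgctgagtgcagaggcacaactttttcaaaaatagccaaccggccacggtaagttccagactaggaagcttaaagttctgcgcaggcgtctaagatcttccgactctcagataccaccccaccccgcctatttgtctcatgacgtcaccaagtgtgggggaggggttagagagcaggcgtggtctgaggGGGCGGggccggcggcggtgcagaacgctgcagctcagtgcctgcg
Cdkn2c, upstream start, chr4:109666707-109667006: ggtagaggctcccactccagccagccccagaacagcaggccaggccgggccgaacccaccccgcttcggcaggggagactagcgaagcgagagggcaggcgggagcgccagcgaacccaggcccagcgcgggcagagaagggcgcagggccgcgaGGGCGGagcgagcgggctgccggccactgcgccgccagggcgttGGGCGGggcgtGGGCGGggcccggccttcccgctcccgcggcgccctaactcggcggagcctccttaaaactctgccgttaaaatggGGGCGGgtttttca
Cdkn2c, downstream start, chr4:109665323-109665622: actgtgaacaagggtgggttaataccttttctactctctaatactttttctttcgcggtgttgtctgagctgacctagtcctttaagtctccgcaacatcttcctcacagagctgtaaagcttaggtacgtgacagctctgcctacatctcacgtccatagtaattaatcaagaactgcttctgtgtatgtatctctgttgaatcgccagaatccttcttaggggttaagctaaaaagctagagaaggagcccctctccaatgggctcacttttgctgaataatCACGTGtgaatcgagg
Cdkn2d, chr9:21291160-21291459: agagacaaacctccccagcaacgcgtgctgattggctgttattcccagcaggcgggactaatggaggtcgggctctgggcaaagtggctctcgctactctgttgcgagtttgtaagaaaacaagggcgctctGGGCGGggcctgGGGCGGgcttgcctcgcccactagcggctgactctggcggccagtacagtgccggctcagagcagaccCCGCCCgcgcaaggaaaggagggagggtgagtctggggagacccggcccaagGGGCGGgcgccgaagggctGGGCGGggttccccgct
The Cdkn2b window, of the gene that was high in PD1hi, held 1 GC box and no other match. Cdkn2c has a GC-rich window with 4 GC boxes (73.3% G and C) and a poorer one with 1 E box (44.0%). The Cdkn2d window, of the gene that was low in PD1hi, held 5 GC boxes, the most of the windows examined. Of all 32817 RefSeq windows of this length, 35.6% held a GC box, 1.38% the E2F motif, 7.15% the E box, 7.81% the AP-1 motif and 3.65% the forkhead motif. A match describes the letters of the window and is neither a bound site nor a cause, and the same motif stood in windows of genes that rose and of the gene that fell.

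Of the CIP/KIP genes, Cdkn1a was higher in PD1hi than in Tconv, while the tests of Cdkn1b missed the threshold. Cdkn1a (ENSMUSG00000023067) encodes p21, the p53-responsive inhibitor of Cdk2 complexes. In experiments 3, 5 and 6 its values were 104, 124 and 107 in PD1hi, 73.2, 31.0 and 40.5 in Treg, and 29.8, 41.6 and 17.6 in Tconv. Every PD1hi value exceeded every value of both other populations, whereas Treg and Tconv overlapped. Means were 111 ± 11.2 in PD1hi, 48.3 ± 22.1 in Treg and 29.7 ± 12.0 in Tconv. PD1hi exceeded Tconv 3.75 times in the means, with a log2 fold change of 1.95 ± 0.40 (limma, adjusted p = 0.00355). PD1hi exceeded Treg 2.31 times in the means, but at 1.28 ± 0.40 the fold just missed the threshold (limma, adjusted p = 0.051). Without the second Treg library of experiment 3 the adjusted p from limma was 0.0378. Without all Treg libraries of experiment 3 the fold was 1.62 (limma, adjusted p = 0.0250), and without the Tconv libraries of experiment 6 it was 1.28 (adjusted p = 0.0421). It also passed at equal totals and with a pseudocount of 10, and over all alternatives its adjusted p ran from 0.0250 to 0.166. Treg against Tconv gave a fold of 0.67 ± 0.40 (limma, adjusted p = 0.351), and within the experiments it was 1.27, -0.41 and 1.16.

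Cdkn1b (ENSMUSG00000003031) encodes p27, which holds resting T cells out of the cycle and is removed largely by protein degradation. Its values in experiments 3, 5 and 6 were 2870, 3756 and 3110 in PD1hi, 3810, 3400 and 4455 in Treg, and 2838, 2691 and 3174 in Tconv. PD1hi overlapped both other populations, and the Treg values all lay above those of Tconv. Means were 3245 ± 458 in PD1hi, 3889 ± 532 in Treg and 2901 ± 248 in Tconv. None of the 3 comparisons passed the test in limma, at 0.16 ± 0.15 for PD1hi against Tconv (adjusted p = 0.491), -0.26 ± 0.15 for PD1hi against Treg (adjusted p = 0.288) and 0.42 ± 0.15 for Treg against Tconv (adjusted p = 0.0907). The last of these passed in 3 of 22 alternatives, with libraries scaled to equal totals (0.49, limma, adjusted p = 0.0392), the 13 libraries as separate samples (0.44, adjusted p = 0.0144) and only both populations fitted (0.42, adjusted p = 0.0466). The log2 difference of Cdkn1a minus Cdkn1b was -4.78, -4.91 and -4.85 in PD1hi, -5.68, -6.73 and -6.75 in Treg, and -6.52, -5.98 and -7.41 in Tconv, so the 3 PD1hi values were above the rest and close together. Cdkn1c, which encodes p57, stayed low, with means of 12.0 ± 9.70 in PD1hi, 19.8 ± 11.2 in Treg and 9.29 ± 2.51 in Tconv, and passed none of the 3 tests.

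Ccnd2 and Ccnd3 both had their highest means in Tconv, and neither passed the test between PD1hi and Treg. Ccnd2 (ENSMUSG00000000184), the D cyclin gene with the most reads here, measured 13110, 12530 and 12350 in PD1hi, 14230, 13760 and 13930 in Treg, and 18480, 19890 and 18970 in Tconv in experiments 3, 5 and 6. The 3 populations did not overlap, PD1hi was below Treg and Treg below Tconv in each experiment, and the spread within a population was small. Means were 12660 ± 394 in PD1hi, 13980 ± 236 in Treg and 19110 ± 712 in Tconv. Its log2 fold change was -0.59 ± 0.11 in PD1hi against Tconv (limma, adjusted p = 0.00151) and -0.14 ± 0.11 in PD1hi against Treg (adjusted p = 0.444). For Treg against Tconv it was -0.45 ± 0.11 (limma, adjusted p = 0.0144). That last call was lost, with folds of -0.46 to -0.42, when the values of experiment 5 or 6 were left out of Treg (limma, adjusted p = 0.0612 and 0.0517) or of Tconv (0.0621 and 0.0566).

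Ccnd3 (ENSMUSG00000034165), the D cyclin that thymocytes need to expand, measured 1142, 1731 and 1621 in PD1hi, 969.5, 1235 and 890.2 in Treg, and 1654, 2481 and 1388 in Tconv. PD1hi overlapped both other populations, and experiment 5 gave the highest value in each of the 3. Means were 1498 ± 313 in PD1hi, 1032 ± 180 in Treg and 1841 ± 570 in Tconv. The log2 fold change was -0.28 ± 0.23 in PD1hi against Tconv (limma, adjusted p = 0.424) and 0.53 ± 0.23 in PD1hi against Treg (adjusted p = 0.157). Between Treg and Tconv it was -0.81 ± 0.23 (limma, adjusted p = 0.0356), and within experiments 3, 5 and 6 it was -0.77, -1.01 and -0.64. This call held in 16 of 22 alternatives, among them the fit blocked by experiment (-0.81 ± 0.17, limma, adjusted p = 0.0109). It was lost at equal totals (-0.73, limma, adjusted p = 0.0686) and with no variance trend (adjusted p = 0.0930). It was also lost without the Tconv value of experiment 3 or 5 (-0.86 and -0.57, limma, adjusted p = 0.0756 and 0.141) and without the Treg value of experiment 3 or 6 (-0.77 and -0.71, adjusted p = 0.106 and 0.126). The log2 difference of Ccnd2 minus Ccnd3 was 3.10 ± 0.36 in PD1hi, 3.77 ± 0.26 in Treg and 3.42 ± 0.39 in Tconv (SD, n = 3 each), with overlap between all 3. Ccnd1 was low and passed no test, with means of 56.4 ± 29.1 in PD1hi, 48.4 ± 11.6 in Treg and 53.6 ± 22.2 in Tconv.

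Cdk6 (ENSMUSG00000040274), the kinase partner of the D cyclins that is prominent in blood cells, measured 2572, 2919 and 1530 in PD1hi, 1862, 1671 and 1795 in Treg, and 742, 1177 and 791 in Tconv in experiments 3, 5 and 6. Both PD1hi and Treg lay above Tconv without overlap, and PD1hi fell on both sides of Treg because its library of experiment 6, one of those that stood apart, was the lowest of the 6 values. Means were 2340 ± 723 in PD1hi, 1776 ± 96.9 in Treg and 903 ± 239 in Tconv. The log2 fold change was 1.35 ± 0.24 in PD1hi against Tconv (limma, adjusted p = 0.00117) and 1.0 ± 0.24 in Treg against Tconv (adjusted p = 0.0132). The second of these calls was lost without the Tconv value of experiment 3 or 6 (0.88 and 0.92, limma, adjusted p = 0.0663 and 0.0596) and without the Treg value of experiment 3 (0.97, adjusted p = 0.0503). PD1hi against Treg gave 0.35 ± 0.24 (limma, adjusted p = 0.390), but 0.63 ± 0.19 without the PD1hi library of experiment 6 (limma, adjusted p = 0.0353) and 0.60 ± 0.19 without both libraries that stood apart (adjusted p = 0.0465). Cdk4, the other D cyclin kinase, passed no test, with means of 3941 ± 219 in PD1hi, 3649 ± 92.2 in Treg and 3892 ± 316 in Tconv and log2 fold changes of 0.02, 0.11 and -0.09 in PD1hi against Tconv, PD1hi against Treg and Treg against Tconv. The log2 difference of Cdk6 minus Cdk4 was -0.80 ± 0.41 in PD1hi, -1.04 ± 0.083 in Treg and -2.13 ± 0.25 in Tconv (SD, n = 3 each). All 6 values of PD1hi and Treg lay above the 3 of Tconv, whose highest was -1.85.

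**Figure D3:**
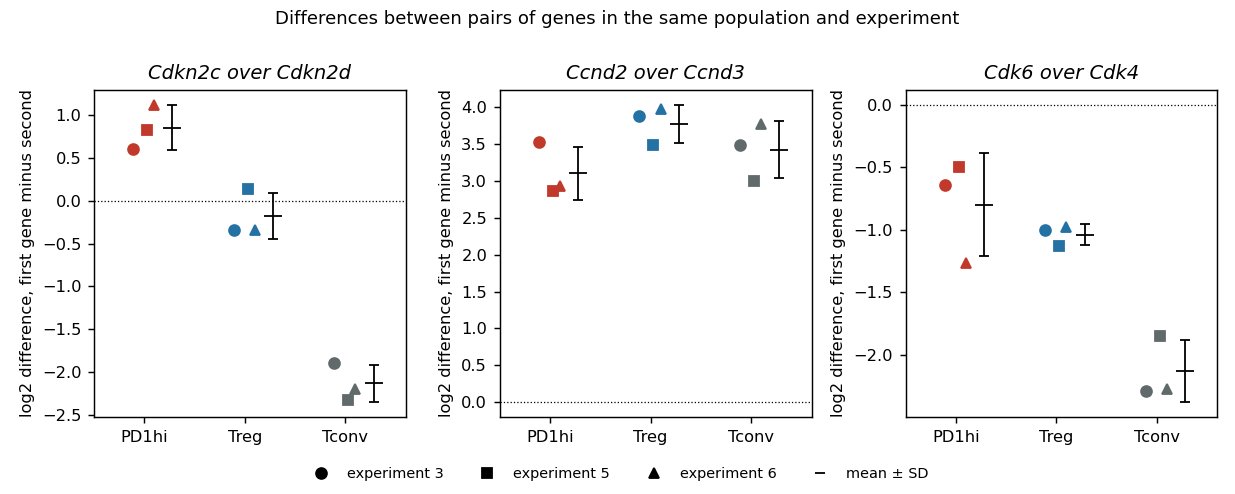
Log2 differences within each population and experiment for 3 gene pairs (first gene minus second), with PD1hi on the left, Treg in the middle and Tconv on the right. Points are the 3 experiments, bars are mean ± SD, and each panel has its own axis. Cdkn2c minus Cdkn2d separates all 3 populations, from 0.85 ± 0.26 in PD1hi to -2.13 ± 0.22 in Tconv, Ccnd2 minus Ccnd3 overlaps between populations, and Cdk6 minus Cdk4 separates PD1hi and Treg from Tconv.

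Trp53 (ENSMUSG00000059552), which encodes p53, measured 6500, 5834 and 6937 in PD1hi, 6003, 5125 and 6082 in Treg, and 7320, 6631 and 7407 in Tconv in experiments 3, 5 and 6. The order within each experiment was Treg lowest, PD1hi in the middle and Tconv highest, while PD1hi overlapped both others. Means were 6424 ± 556 in PD1hi, 5737 ± 531 in Treg and 7119 ± 425 in Tconv. None of the 3 differences passed in limma, at -0.15 ± 0.13 for PD1hi against Tconv (adjusted p = 0.425), 0.16 ± 0.13 for PD1hi against Treg (adjusted p = 0.448) and -0.31 ± 0.13 for Treg against Tconv (adjusted p = 0.134). Mdm2, the p53 target that drives p53 degradation, had means of 1783 ± 162 in PD1hi, 2041 ± 324 in Treg and 1762 ± 124 in Tconv and passed none of the tests. The p53 protein is regulated largely after translation, so its transcript is no measure of its activity.

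Levels of different genes were compared per kilobase of exon, with exon lengths from GENCODE M21, in scaled counts per kb. The length was the union of all annotated exons of a gene, which can exceed that of the transcripts made in these cells. Shares and ranks between genes therefore depend on the annotation. By this measure Ccnd2 was the most abundant D cyclin, with 1350 in PD1hi, 1490 in Treg and 2030 in Tconv, against 171, 118 and 210 for Ccnd3 and 12.0, 10.3 and 11.4 for Ccnd1 in the same order of populations. Ccnd2 thus made up 88.1% of D cyclin transcript per kb in PD1hi, 92.1% in Treg and 90.2% in Tconv. Trp53 had 1590 in PD1hi, 1420 in Treg and 1760 in Tconv, and Cdk4 had 1210, 1120 and 1200. Cdk6 was far below Cdk4, with 167 in PD1hi, 127 in Treg and 64.6 in Tconv. Among the inhibitors Cdkn1b was the highest in each population, with 713 in PD1hi, 854 in Treg and 637 in Tconv. In PD1hi it was followed by Cdkn2c at 154 ± 22.2 and Cdkn2d at 148 ± 34.7 (SD, n = 3 each), which did not differ beyond their spread, then by Cdkn2b at 55.2 ± 25.9, Cdkn1a at 31.4 ± 3.16 and Cdkn1c at 5.90 ± 4.76. Cdkn2b and Cdkn1a overlapped there, since Cdkn2b ran from 28.9 to 80.7 and Cdkn1a from 29.1 to 35. In Treg the order was Cdkn1b, Cdkn2d at 199 ± 35.8, Cdkn2c at 103 ± 19.5, Cdkn1a at 13.6 ± 6.22, Cdkn1c at 9.70 ± 5.51 and Cdkn2b at 3.43 ± 3.45, with overlap between neighbours among the last 3. In Tconv it was Cdkn1b, Cdkn2d at 477 ± 38.2, Cdkn2c at 63.6 ± 8.32, Cdkn1a at 8.36 ± 3.38, Cdkn1c at 4.56 ± 1.23 and Cdkn2b at 2.46 ± 1.27, again with overlap between those neighbours. Exons overlapped those of a gene on the opposite strand for 2.63% to 7.68% of the exon bases of Cdkn1a, Ccnd2, Ccnd3 and Cdk6, and without the strand setting of the counting, reads from those bases cannot be told apart. The overlapping partner of Ccnd3 is Bysl.

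**Figure D4:**
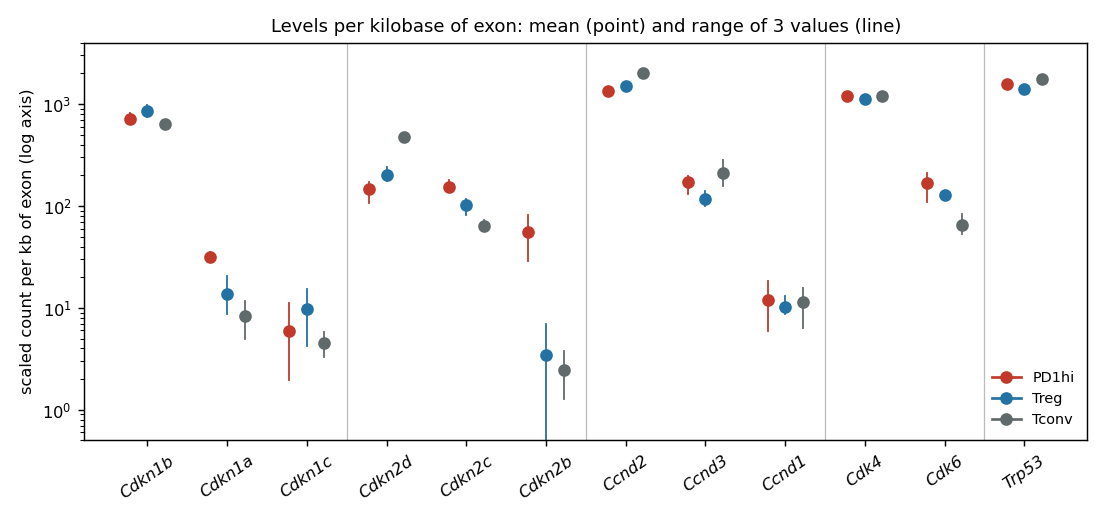
Scaled counts per kb of exon, on a log axis, for the inhibitors, D cyclins, kinases and Trp53, with PD1hi left of Treg and Tconv in each group. Points are means and lines run from the lowest to the highest of the 3 values, and the Treg line of Cdkn2b ends at the axis because its lowest value is 0. Ccnd2, Trp53, Cdk4 and Cdkn1b are high in all 3 populations, and Cdkn2b spans the widest range between populations, from 55.2 in PD1hi to 2.46 in Tconv.

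Most genes of S phase and mitosis were higher in both PD1hi and Treg than in Tconv. In PD1hi against Tconv 19 of 24 rose, 0 fell and 5 did not pass, with a median log2 fold change of 1.67, so 79.2% were higher, against 14.2% of all genes. Mki67, a marker of dividing cells, averaged 2030 ± 169 in PD1hi and 452 ± 75.1 in Tconv, a log2 fold change of 2.18 ± 0.17 (limma, adjusted p = 2.71e-06). The spindle checkpoint kinase gene Bub1b rose by 2.0 ± 0.21 (limma, adjusted p = 2.96e-05), the mitotic kinase gene Plk1 by 1.91 ± 0.22 (adjusted p = 4.97e-05) and Tyms by 1.49 ± 0.18 (adjusted p = 6.68e-05). Treg cells had 16 of 24 higher than Tconv, 0 lower and 8 that did not pass (median 1.07), so 66.7% were higher, against 8.73% of all genes. In PD1hi against Treg 4 rose, 0 fell and 20 did not pass (median 0.46), so 16.7% were higher, against 8.16% of all genes. That count of 4 was 1 without the PD1hi library of experiment 5 or the Treg library of experiment 5, 2 without the PD1hi library of experiment 3, 8 without the PD1hi library of experiment 6, 7 without both libraries that stood apart and 7 at equal totals. The median over all genes tested was 0.0, 0.01 and -0.01 in the 3 comparisons in the order given. In the PD1hi cells transcripts of cell division and of the inhibitors Cdkn1a, Cdkn2b and Cdkn2c were thus above the Tconv level. Of these, Cdkn2b passed the filter on low values only through its PD1hi level. The inhibitor Cdkn2d was below the Tconv level, and the tests of Cdkn1b and Cdkn1c missed the threshold. Whether the raised transcripts came from the same cells cannot be told from sorted populations.

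Of 21 genes of the G1/S machinery, which includes the E2F and Rb families, Cdk2 and its cyclins, 4 rose in PD1hi against Tconv, 0 fell and 17 did not pass (median 0.09). That was 19.0% of the list called, below the 26.1% over all genes, and a share higher near the 14.2% over all genes. The E2F family gene E2f4 rose to 1770 ± 164 in PD1hi, against 1014 ± 128 in Tconv (0.81 ± 0.15, limma, adjusted p = 0.00168). Ccne2, which encodes cyclin E2, rose to 361 ± 101 in PD1hi, against 169 ± 22.9 in Tconv (1.07 ± 0.28, limma, adjusted p = 0.0130). E2f6, which encodes a repressor, rose by 1.16 ± 0.33 (limma, adjusted p = 0.0229) and the E2F partner gene Tfdp2 by 0.71 ± 0.19 (adjusted p = 0.0138). Of these 4 genes E2f4 alone also passed against Treg (0.60 ± 0.15, limma, adjusted p = 0.0155). Tfdp2 averaged 268 ± 20.7 in PD1hi and 312 ± 6.62 in Treg, and Ccne2 averaged 308 ± 93.0 in Treg. The count of 4 against Tconv was 2 without the Tconv value of experiment 3 and 7 at equal totals. In both PD1hi against Treg and Treg against Tconv 1 rose, 1 fell and 19 did not pass, so 9.52% were called, against 16.5% and 14.4% of all genes. These counts ran from 0 to 5 calls and from 1 to 5 calls over the alternatives, the first at 0 without the Treg libraries of experiment 6 and at 5 without the PD1hi library of experiment 6.

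Of 24 listed regulators and targets of p53, 23 were tested, of which 9 rose in PD1hi against Tconv, 1 fell and 13 did not pass (median 0.31), so 43.5% were called, against 26.1% of all genes. The one that fell was Sesn1, a p53 target of the sestrin family that is also activated by FoxO factors, at 702 ± 104 in PD1hi and 3277 ± 321 in Tconv (-2.23 ± 0.14, limma, adjusted p = 6.85e-07). Its Treg level was higher still, at 5415 ± 388, so that PD1hi against Treg gave -2.95 ± 0.14 (limma, adjusted p = 8.21e-08). Among those that rose, Chek1, the checkpoint kinase gene transcribed in cycling cells, was at 149 ± 37.8 in PD1hi and 26.8 ± 4.96 in Tconv (2.41 ± 0.33, limma, adjusted p = 0.000206). The death receptor gene Fas averaged 3134 ± 412 in PD1hi, 2061 ± 89.5 in Treg and 1562 ± 178 in Tconv and passed against both (limma, adjusted p = 0.0109 against Treg and 0.000218 against Tconv). Ei24 rose as well, by 1.46 ± 0.24 against Tconv (limma, adjusted p = 0.000762). In PD1hi against Treg 3 rose, 2 fell and 18 did not pass, and in Treg against Tconv 5 rose, 0 fell and 18 did not pass. In both, 21.7% were called, against 16.5% of all genes in the first and 14.4% in the second. These totals of 5 calls each were 3 without the PD1hi or the Treg value of experiment 3 in the first, and in the second 3 with experiment 3 left out of Treg or experiment 6 out of Tconv and 8 without the PD1hi library of experiment 6.

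Of 25 genes whose products set the levels of CDK inhibitors and D cyclins, 4 rose in PD1hi against Tconv, 3 fell and 18 did not pass (median -0.04). The 28% called, 16.0% higher and 12.0% lower, were close to the 26.1%, 14.2% and 11.9% over all genes. The 3 that fell encode transcription factors. Myc, which drives growth and represses inhibitor genes, averaged 812 ± 151 in PD1hi, 2924 ± 449 in Treg and 3171 ± 277 in Tconv, with log2 fold changes of -1.98 ± 0.17 against Tconv (limma, adjusted p = 6.26e-06) and -1.85 ± 0.17 against Treg (adjusted p = 1.35e-05). Foxo1, which activates Cdkn1b in resting cells, averaged 1954 ± 131 in PD1hi, 6211 ± 1060 in Treg and 5239 ± 927 in Tconv and was also lower in PD1hi in both comparisons, at -1.41 ± 0.17 against Tconv (limma, adjusted p = 6.34e-05) and -1.65 ± 0.17 against Treg (adjusted p = 2.65e-05). Klf2, a factor of T cell quiescence, averaged 385 ± 29.9 in PD1hi, 923 ± 438 in Treg and 1522 ± 374 in Tconv (-1.96 ± 0.28 against Tconv, limma, adjusted p = 0.000262). Mxd4, which encodes a partner of Max that opposes Myc, rose by 0.89 ± 0.17 against Tconv (limma, adjusted p = 0.00237). In PD1hi against Treg 1 rose, 7 fell and 17 did not pass, so 28% were lower, against 8.39% of all genes. In Treg against Tconv 4 rose, 0 fell and 21 did not pass, so 16.0% were higher, against 8.73% of all genes. The first total of 8 calls was 4 when experiment 3 or 5 was left out of PD1hi or experiment 6 out of Treg, and 5 when experiment 3 or 5 was left out of Treg or experiment 3 or 6 out of Tconv. The second total of 4 was 2 without the Tconv value of experiment 3 or 5.

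Genes often measured as signs of senescence moved in both directions. Of 23 symbols listed, 17 were in the table, and 16 gene IDs were tested. Of these, 4 rose in PD1hi against Tconv, 3 fell and 9 did not pass (median 0.03), so 43.8% were called, against 26.1% of all genes. Plaur, the urokinase receptor gene, averaged 3.12 ± 0.122 in PD1hi, 21.1 ± 3.22 in Treg and 102 ± 32.6 in Tconv (-4.58 ± 0.43 against Tconv, limma, adjusted p = 9.89e-06). Its PD1hi level was close to the detection limit, so the size of that fold is uncertain. Glb1, which encodes the lysosomal beta-galactosidase stained in senescent cells, has 2 gene IDs in the table, of which ENSMUSG00000079260 was lower, at 469 ± 87.0 in PD1hi and 826 ± 35.8 in Tconv (-0.83 ± 0.18, limma, adjusted p = 0.00413), while the other did not pass. Bhlhe40, a transcription factor gene of activated T cells, averaged 11000 ± 2460 in PD1hi, 1539 ± 9.96 in Treg and 2258 ± 901 in Tconv (2.33 ± 0.24 against Tconv, limma, adjusted p = 2.13e-05). Timp2, an inhibitor of matrix proteases, rose by 2.26 ± 0.29 against Tconv (limma, adjusted p = 0.000125). In PD1hi against Treg 3 rose, 3 fell and 10 did not pass, so 37.5% were called, against 16.5% of all genes. In Treg against Tconv 0 rose, 1 fell and 15 did not pass, so 6.25% were called, against 14.4% of all genes. That count of 1 was 5 with the 13 libraries as separate samples and 2 without the PD1hi library of experiment 6.

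Of 16 antiproliferative genes, 2 rose in PD1hi against Tconv, 6 fell and 8 did not pass (median -0.23), so 37.5% were lower, against 11.9% of all genes. Tsc22d3, the glucocorticoid-induced gene known as GILZ, averaged 2814 ± 979 in PD1hi, 10810 ± 1320 in Treg and 17870 ± 4300 in Tconv (-2.71 ± 0.25 against Tconv, limma, adjusted p = 9.44e-06). Foxp1, which keeps naive T cells quiescent, averaged 7786 ± 420 in PD1hi, 9339 ± 1090 in Treg and 14410 ± 824 in Tconv. It was lower than in Tconv in both PD1hi (-0.89 ± 0.12, limma, adjusted p = 0.000231) and Treg (-0.63 ± 0.12, adjusted p = 0.00453). Btg1, which helps maintain T cell quiescence, fell in PD1hi against Tconv by 0.60 ± 0.13 on the log2 scale (limma, adjusted p = 0.00523), and Ndrg1 fell by 1.27 ± 0.28 (adjusted p = 0.00481). Between PD1hi and Treg, Foxp1 and Btg1 did not pass (limma, adjusted p = 0.207 and 0.388). Ndrg1 and Tsc22d3 were lower in PD1hi than in Treg (limma, adjusted p = 0.000344 and 0.000142). In PD1hi against Treg 1 rose, 4 fell and 11 did not pass, so 31.2% were called, against 16.5% of all genes. Treg against Tconv had 1 gene that rose, 2 that fell and 13 that did not pass, so 18.8% were called, against 14.4% of all genes. The first total of 5 was 3 without any 1 of the PD1hi values of experiments 5 and 6, the Tconv values of experiments 3 and 5 and the Treg value of experiment 3, and the second total of 3 was 5 without the PD1hi library of experiment 6 and also 5 in the fit blocked by experiment. The 2 gene IDs of Glb1 and of Tob2 are each counted by ID.

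**Figure D5:**
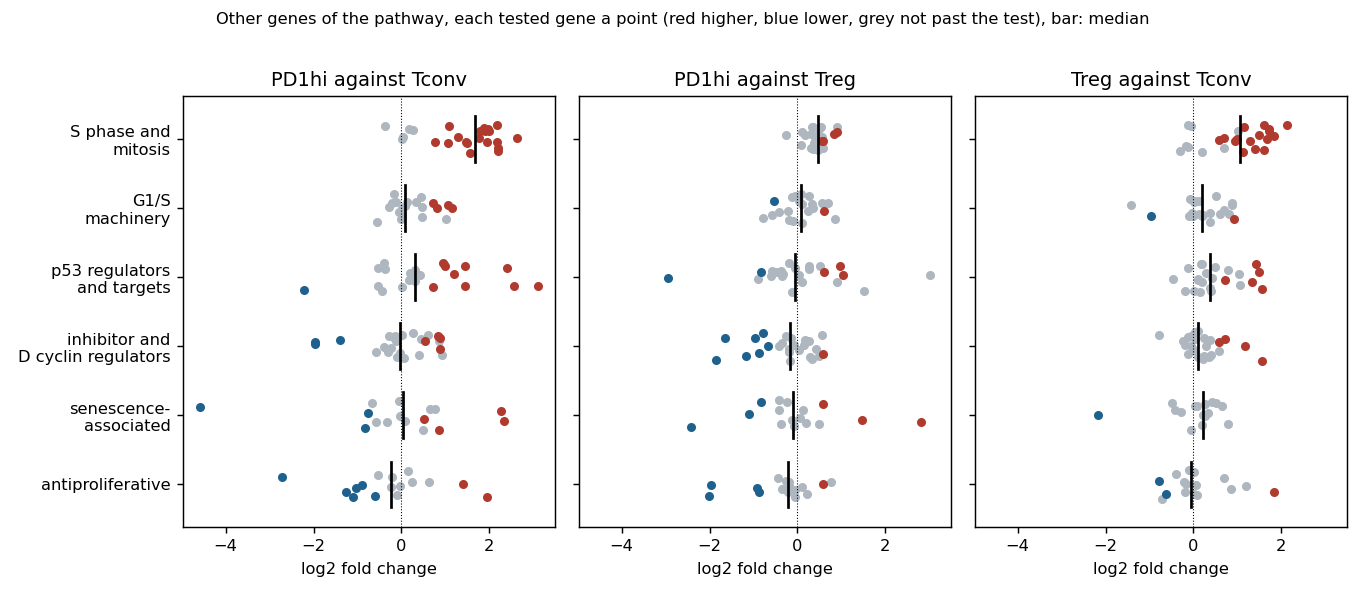
Log2 fold changes of the tested genes of 6 lists in the 3 comparisons, on a shared axis. Each point is a gene, red where higher and blue where lower at an adjusted p under 0.05 from limma and grey otherwise, and bars are the medians of the lists. S phase and mitosis has 19 of 24 higher in PD1hi against Tconv (79.2%, against 14.2% of all genes) and 16 of 24 higher in Treg against Tconv (66.7%, against 8.73%), with 0 lower in both.

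For each gene, the genes most like it were those with the smallest root mean square difference of centred log2 levels over the 9 values. Cdkn2c was closest to the phosphatase gene Cdc14a (0.0865), then Pdk3 and the S phase cyclin gene Ccna2 (0.14 each), against a spread of 0.552 of Cdkn2c about its own mean. Cdk6 was closest to Slc39a13 (0.172), Myo1c (0.194) and Tyms (0.212), the thymidylate synthase gene, against a spread of 0.642. Cdkn2d was closest to Usp2 (0.18), Itm2a (0.183) and Gpatch4 (0.198), with a spread of 0.756. Cdkn1a was closest to Tspan2 (0.232), Gstm1 (0.275) and Tlcd2 (0.283), with a spread of 0.908. Among the 3 genes closest to Ccnd2 were Emg1 (0.061) and Ddx39 (0.0658), with a spread of 0.255. Cdkn2b was closest to Dnase1l3 (0.764), Popdc2 (0.828) and Efnb2 (0.835), with a spread of 2.17. The nearest genes were B4galnt1 for Ccnd3 (0.097, spread 0.435), Mlx for Trp53 (0.0518, spread 0.161) and Hcls1 for Cdkn1b (0.108, spread 0.224). All of these share libraries and population structure with the gene they resemble, so the values describe likeness over 9 points and carry no test.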

How the data were processed

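The members and gene lists were chosen with earlier results of these data known. Total RNA prepared with Trizol was depleted of ribosomal RNA and sequenced on Ion Torrent, per the labels' protocols. The submitters' processing notes name Picard, HTSeq 0.5.4, limma and the builds hg19, GRCh37 and mm9. Which aligner was used, what each build served for and how strand was treated is not given in the sources used here. A single table was deposited by the authors, with 18649 genes in 13 libraries. Its deposited values are in the unit signal, namely counts scaled by size factors with 1 added. That 1 was subtracted. All deposited signal values were then whole reads times a constant of the library, within 0.01 reads, and the reads were used for depth and read counts only.

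Libraries of an experiment and population were averaged. The 14177 genes whose mean scaled count reached 10 were tested with limma 3.58.1 in R 4.3.3, with a variance trend, on log2(scaled count + 1), 2-sided, with 1 spread for 3 populations and Benjamini-Hochberg adjusted p under 0.05. This scale understates the change of low genes. The script was tested on simulated data. Every member is named, with the 4 genes of each list of lowest adjusted p in PD1hi against Tconv and a few partners. Libraries named a replicate of another differed by 7.768 to 73.5 times the sampling noise of their reads, as chi-square per degree of freedom. The titles name a shared experiment, and the experiment was not a block in the main test because no source states that the study used one. Deviations of the same experiment from the population means correlated at 0.019 to 0.197 for PD1hi with Tconv, -0.070 to 0.169 for PD1hi with Treg and 0.218 to 0.298 for Treg with Tconv. By the last, experiments paired the Treg and Tconv values, so blocked values stand beside results that they change. Alternatives changed the pseudocount, filter, scaling, averaging, block, trend and populations fitted, and left out each value in turn. Exon lengths and overlaps came from GENCODE M21, where the table's ID of Cdkn2d was matched by symbol. No gene coordinates of the files' build are given. Values of some single genes are not reported here.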

Additional observations from a re-analysis of the deposited data

Results flagged for a closer look

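Cdkn2b in Treg was flagged because 1 library lay far from the other 4. The second Treg library of experiment 3 was at 19.2 scaled counts (19.16, from 25 reads), the nearest other library at 4.70, and the remaining 3 at 0. That library was the deepest and stood apart on the third principal component. Of 18 combinations of gene and population with 5 libraries, 1 was flagged, and chance flags about 1 in 20. Without this library the log2 fold change of PD1hi against Treg was 5.33 instead of 4.19. The part of depth or library quality in this value was not tested.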

How the results depend on the processing

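Each result was recomputed under 13 other settings and with each of 9 values left out. Of 590 values of single members, 553 kept their direction and side of the threshold, 13 lost and 21 gained a call, and 3 changed sign. All 6 calls of members in PD1hi against Tconv held in every alternative in which the gene was tested (Cdkn2b was not tested at a minimum mean of 50). For Cdkn2b, which passed the filter only through its PD1hi level, this carries little information. The changes of sign were all of the uncalled Cdkn2b in Treg against Tconv (-0.09), at 0.09 with a pseudocount of 10, 0.20 without the Tconv value of experiment 5 and, without a Treg value, between -0.81 (experiment 3) and 0.89 (experiment 6). The cause was not tested. Calls of all genes ranged from 2710 to 3803 in PD1hi against Tconv (3700), 1764 to 2559 in PD1hi against Treg (2346) and 1421 to 2666 in Treg against Tconv (2039) when a value was left out. With the 13 libraries as separate samples Treg against Tconv gave 3151. With the experiment as a replicate block the counts were 3974, 2579 and 2204, and the block changed 1 member's call, that of Cdkn2c in Treg against Tconv (0.68, adjusted p = 0.0354 from limma). Scaling to equal totals moved the median of all genes by 0.143 in PD1hi against Tconv and gave 2457 higher and 1299 lower genes (65.4% higher, against 54.4%), with the same 4 members higher and 2 lower. Of 396 list counts, 328 stayed within 1.5 times. Depth limits Cdkn2b most, with 16 reads over all Tconv libraries.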
